A study of Mus musculus with 4 samples.

Results

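Whole blood was searched for 5 miRNA loci known from heart and skeletal muscle: mmu-mir-133a-1, mmu-mir-133a-2, mmu-mir-133b, mmu-mir-208b and mmu-mir-499. They were chosen by name, and are 5 of the 374 annotated miRNA loci listed for these libraries. The animals were Balb/c mice, an inbred laboratory strain, aged 180 days. The 2 control libraries come from mice kept on feed and water, and the 2 cadmium libraries from mice whose drinking water contained cadmium (a heavy metal, toxic to kidney and liver). The sources used here do not give the cadmium dose, its duration or the sex of the mice. The labels do not tie libraries to separate mice, so every p-value reflects the spread among these 4 libraries alone, and that spread may be technical. The values are counts of mature reads, and the comparison asks which blood miRNAs differ with cadmium.

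Muscle cells make a small set of miRNAs, often called myomiRs, that other tissues make very little of. They act by pairing a short stretch near their 5′ end, the seed, with messenger RNAs and lowering their output. miR-133 is made with miR-1 or miR-206 from shared transcripts of heart and skeletal muscle. miR-208b and miR-499 lie inside genes of myosin heavy chains, the motor proteins of muscle, and are linked with the slow fibre programme and with heart muscle. In blood these miRNAs are known as traces of muscle and heart tissue, where injury can raise them.

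Of the 5 members, 3 have a mature entry in RefSeq (build GRCm38.p6), and these are shown because the families differ in the seed. Capitals mark the seed, bases 2 to 8 from the 5′ end, and miR-208a is printed beside its close relative miR-208b.
miR-133b: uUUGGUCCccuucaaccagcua
miR-208b: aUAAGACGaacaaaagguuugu
miR-208a: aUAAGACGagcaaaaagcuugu
miR-499: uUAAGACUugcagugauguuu
miR-208b and miR-208a share all 7 seed bases and 19 of 22 bases in all. miR-499 shares 6 of the 7 seed bases with miR-208b, and 10 of 21 positions over its whole length, those 6 included. Among the RefSeq mature entries used, these 3 were the only names with the bases UAAGAC at positions 2 to 7. The seed of miR-133b was unlike the others. miR-133a matched miR-133b at 21 of 22 positions as listed and has the same seed.

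The hairpins from which the members are cut show which arm was counted, with the mature sequence in capitals.
Mir133b: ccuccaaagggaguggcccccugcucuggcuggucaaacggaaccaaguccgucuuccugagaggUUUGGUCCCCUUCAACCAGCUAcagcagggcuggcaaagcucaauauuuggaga
Mir208b: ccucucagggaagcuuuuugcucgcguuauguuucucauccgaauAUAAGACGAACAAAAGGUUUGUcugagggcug
Mir499: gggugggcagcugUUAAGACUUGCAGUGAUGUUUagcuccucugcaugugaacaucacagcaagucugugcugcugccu
The counted arm is the 3′ arm in Mir133b and Mir208b and the 5′ arm in Mir499. The listed sequence was the first 20 of 22 bases for miR-133b, 21 of 22 for miR-208b and 20 of 21 for miR-499. Each member's window was the same in every library that listed it. The 20 bases listed for miR-133b are also the first 20 of miR-133a, so how the authors assigned reads sets where one ends and the other begins.

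On mm10, miR-208b was counted at chr14:54975711-54975731 on the minus strand, in an intron of Myh7, the gene of the slow and beta-cardiac myosin heavy chain. miR-499 was counted at chr2:155622893-155622912 on the plus strand, in an intron of the related Myh7b. miR-133b was counted at chr1:20682834-20682853 on the plus strand, in an exon of the long noncoding transcript Gm28653, and its hairpin lies 3686 bases from that of Mir206.

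The copies mmu-mir-133a-1 and mmu-mir-133a-2 list the same reads, and are 1 result below, miR-133a. The copy mmu-mir-133a-2 is counted at chr2:180398437-180398458 on the plus strand, outside any other annotated gene, with its hairpin 9254 bases from Mir1a-1. The other copy is on chromosome 18, 10782913 to 10782934, minus strand, in an intron of the transcript Mir133a-1hg and opposite an intron of Mib1, a ubiquitin ligase gene. Its hairpin is 2504 bases from Mir1a-2.

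The rows of the lists sum to 30277884 to 43666624 reads in controls and 17064897 to 18575659 with cadmium, with reads repeated at copies of a sequence. With each annotated sequence counted once, they hold 15158576 to 21413530 reads in controls and 8889833 to 9570309 with cadmium. No list holds a count under 5. A missing locus is therefore not a measured 0. Levels below are CPM, reads scaled to a common library size by TMM, a normalization that sets libraries level on the bulk of their loci. In CPM, 1 read is worth 0.0318 to 0.0618, so the smallest members rest on few reads. Blood markers dominated every library. The 3 red cell sequences miR-486, miR-144 and miR-16 summed to 392927 to 411220 CPM in controls and 299961 to 314694 CPM with cadmium. These values are not shares of a library, since the TMM factors were 0.892 and 0.912 in controls and 1.13 and 1.09 with cadmium. Mean levels in controls and with cadmium were 253127 and 167228 CPM for miR-486, 16130 and 10780 for miR-144, and 132817 and 129320 for miR-16-1. With bulk blood, fewer cells of a type and less RNA per cell cannot be told apart. Of 11 muscle-specific loci named for comparison, the 5 members were listed, and miR-1a-1, miR-1a-2, miR-1b, miR-133c, miR-206 and miR-208a are not analysed here.

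In this blood, miR-133a was the most abundant member in every library, and its level was higher with cadmium than in either control, though the test was not passed. miR-133b had few reads and was higher in both cadmium libraries than in control 1. miR-208b and miR-499 were near 1 CPM, with overlapping groups. The control libraries were far apart in all 3 tested sequences, and not in the same order.

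miR-133a, which acts on muscle growth and differentiation, had 1074 reads in control 1, 294 in control 2, 695 in cadmium 1 and 699 in cadmium 2. These were 34.2, 13.1, 43.0 and 41.1 CPM. Control 2 stood far below the other libraries, and both cadmium libraries were above both controls. The exact 95% Poisson intervals, which cover counting error only, ran from 32.2 to 36.3 CPM in control 1 and from 11.7 to 14.7 in control 2, against 39.8 to 46.3 and 38.1 to 44.3 in cadmium 1 and 2. The intervals of the controls did not overlap. Group means were 23.6 ± 14.9 CPM for control and 42.0 ± 1.3 CPM for cadmium (SD over 2 libraries each), a log2 fold change of 0.83 ± 0.41 (SE). Its 95% interval ran from -0.13 to 1.78, and the edgeR quasi-likelihood adjusted p = 0.237 over all loci tested.

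**Figure D1:**
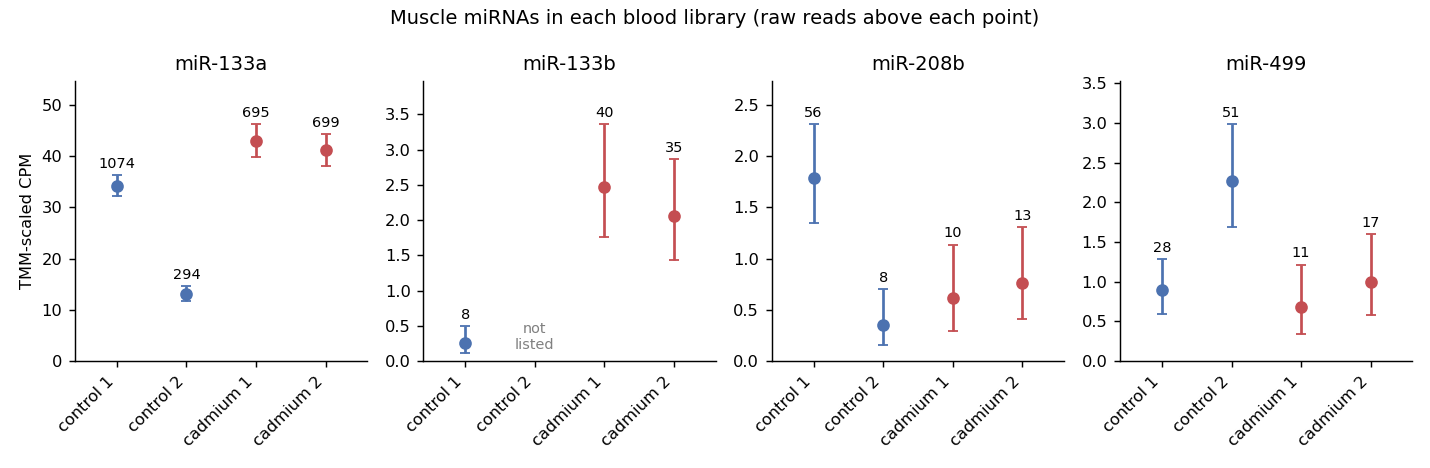
TMM-scaled CPM (vertical axes, a separate scale from 0 in each panel) of the 4 distinct muscle miRNAs in each library, with exact 95% Poisson intervals for counting error and raw reads above each point. miR-133a is lowest in control 2 at 13.1 CPM, miR-208b is highest in control 1 at 1.78 CPM, miR-499 is highest in control 2 at 2.27 CPM, and miR-133b is not listed in control 2.

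The size of the miR-133a difference hung on which control was used. Without control 1 it was 1.68 ± 0.18 on the log2 scale, and without control 2 it was 0.30 ± 0.15. The first passed the threshold (edgeR adjusted p = 2.96e-17) in a fit where a single control is assumed to vary like the close cadmium pair, and where 21.8% of 275 loci were called higher. The second did not (edgeR adjusted p = 0.0973). With upper quartile scaling miR-133a was called as well, at 1.11 ± 0.30 (edgeR adjusted p = 0.00241), while 17.4% of all loci were called higher.

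miR-133b, the near twin of miR-133a from the miR-206 locus, had 8 reads in control 1, 40 in cadmium 1 and 35 in cadmium 2, and was not listed in control 2. These were 0.255, 2.47 and 2.06 CPM. The intervals were 0.110 to 0.502 CPM in control 1, 1.77 to 3.37 in cadmium 1 and 1.43 to 2.86 in cadmium 2, so control 1 and the cadmium libraries did not overlap in counting error. At the lower cadmium level control 1 would have held 64.7 reads and control 2 46.2, well above the lowest count listed. Why control 2 does not list miR-133b is not given in the sources used here, so its level there is unknown. The mean with cadmium was 2.27 ± 0.292 CPM (SD, n = 2), 8.90-fold above control 1, a log2 ratio of 3.15.

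Since control 2 gives no count, miR-133b was outside the main test. In an alternative fit each unlisted locus was taken as 4 reads, which is an assumption. That sets the control 2 value of miR-133b, so the p reflects no measured spread between controls for it. There its log2 fold change was 3.28 ± 0.38 (edgeR adjusted p = 0.00345), and 7.77% of the 296 loci in that fit were called higher. With only control 1 and the cadmium libraries, with no count assumed, it was 3.08 ± 0.53 (edgeR adjusted p = 8.54e-08), with 21.4% of 280 loci called higher. That fit was added after the lists were seen. It has a single control library and takes its spread from the cadmium pair alone, so its p says nothing of variation among controls.

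Within a library, miR-133b can be set against miR-133a. Of the reads given to either, miR-133b took 0.739% of 1082 in control 1 (exact 95% binomial interval 0.320% to 1.45%), 5.44% of 735 in cadmium 1 (3.92% to 7.34%) and 4.77% of 734 in cadmium 2 (3.34% to 6.57%). The cadmium libraries were close to each other and above control 1. These shares do not depend on scaling, but they do depend on how reads of the shared 20 bases were assigned, which is not given in the sources used here, and only 1 control library gives a value.

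miR-208b, carried by the slow myosin gene Myh7, had 56 reads in control 1, 8 in control 2, 10 in cadmium 1 and 13 in cadmium 2. These were 1.78, 0.357, 0.618 and 0.765 CPM. Control 1 stood above the others, and the cadmium libraries fell between the controls. The control mean was 1.07 ± 1.01 CPM and the cadmium mean 0.692 ± 0.104 CPM (SD over 2 libraries each). The log2 fold change was -0.70 ± 0.69, with a 95% interval from -2.30 to 0.90 (edgeR adjusted p = 0.467), so neither direction was resolved. Without control 1 the value turned to 0.95 ± 0.58 (edgeR adjusted p = 0.190). Without control 2 it was -1.35 ± 0.42 and past the threshold (edgeR adjusted p = 0.00430), in a fit that called 20.4% of 274 loci lower. With either control left out, the spread comes from the cadmium pair alone, so these p-values do not reflect variation among controls.

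miR-499, carried by Myh7b and sharing bases 2 to 7 with miR-208b, had 28 reads in control 1, 51 in control 2, 11 in cadmium 1 and 17 in cadmium 2. These were 0.891, 2.27, 0.680 and 1.0 CPM. Here control 2 was the high library, and control 1 lay between the cadmium libraries. The control mean was 1.58 ± 0.978 CPM and the cadmium mean 0.840 ± 0.226 CPM (SD over 2 libraries each), giving a log2 fold change of -0.86 ± 0.52 with a 95% interval from -2.07 to 0.35 (edgeR adjusted p = 0.335). Without control 1 it was -1.42 ± 0.40 (edgeR adjusted p = 0.00169), where 16.4% of loci were called lower and the cadmium pair alone again gave the spread. Without control 2 it was -0.078 ± 0.45 (edgeR adjusted p = 0.889).

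Of the 4 tested member loci, 0 passed an edgeR adjusted p of 0.05 and 0 had an unadjusted p under 0.05. DESeq2 also called 0, and gave no adjusted p for miR-208b and miR-499. Over all 276 tested loci 14.5% were called, 7.97% higher and 6.52% lower. The groups did not overlap for the 2 copies of miR-133a, with cadmium higher, and overlapped for the others. Over all tested loci 39.5% had cadmium above both controls and 30.4% below, so a separation like that of miR-133a was common among loci. The median log2 fold change over the 4 member loci was 0.064, and -0.70 with each sequence counted once, against 0.080 over all tested loci.

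**Figure D2:**
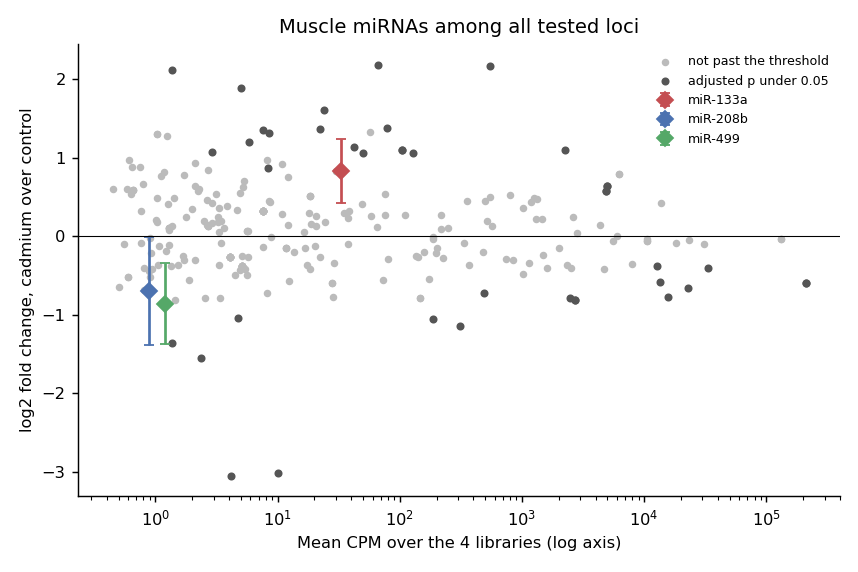
Mean CPM over the 4 libraries (horizontal, log axis) against the log2 fold change of cadmium over control (vertical) for all 276 tested loci, with the muscle miRNAs as diamonds with their SE. miR-133a lies at 0.83 among loci of middle abundance, while miR-208b and miR-499 lie at -0.70 and -0.86 among the least abundant, and dark points mark the 40 loci past the threshold.

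By level, miR-133a ranked 96th of 276 tested loci at a mean of 32.8 CPM, miR-499 243rd at 1.21 CPM and miR-208b 258th at 0.880 CPM. The windows are 20 to 22 bases long, so these CPM were not adjusted for length. Below miR-133a the order changed from library to library. In control 1 miR-208b (interval 1.35 to 2.31 CPM) was above miR-499 (0.592 to 1.29), and in control 2 miR-499 (1.69 to 2.99) was above miR-208b (0.154 to 0.703). With cadmium the intervals of miR-208b and miR-499 overlapped in both libraries, at 0.296 to 1.14 and 0.339 to 1.22 CPM in cadmium 1, and 0.407 to 1.31 and 0.583 to 1.60 in cadmium 2. miR-133b lay below miR-499 and miR-208b in control 1, and was above both in point value in each cadmium library.

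The controls were farther apart for these miRNAs than for most loci. On the log2 CPM scale the controls differed by 2.32 for miR-208b, 1.38 for miR-133a and 1.35 for miR-499, against a median of 0.27 over all tested loci. No other of the 276 loci had controls as far apart as miR-208b. Controls as far apart as those of miR-133a were found at 8 loci, its own copies included, and as far as those of miR-499 at 11. Loci of like abundance were closer: of 51 loci within 2-fold of the mean level of miR-208b, 0 had controls farther apart (median 0.56), as did 0 of 31 loci near miR-133a (median 0.43) and 3 of 53 near miR-499 (median 0.46).

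The signs differed, since control 1 was the higher library for miR-133a and miR-208b and control 2 for miR-499. The cadmium libraries differed by 0.063 for miR-133a, 0.31 for miR-208b and 0.56 for miR-499, with a median of 0.17 over all tested loci.

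**Figure D3:**
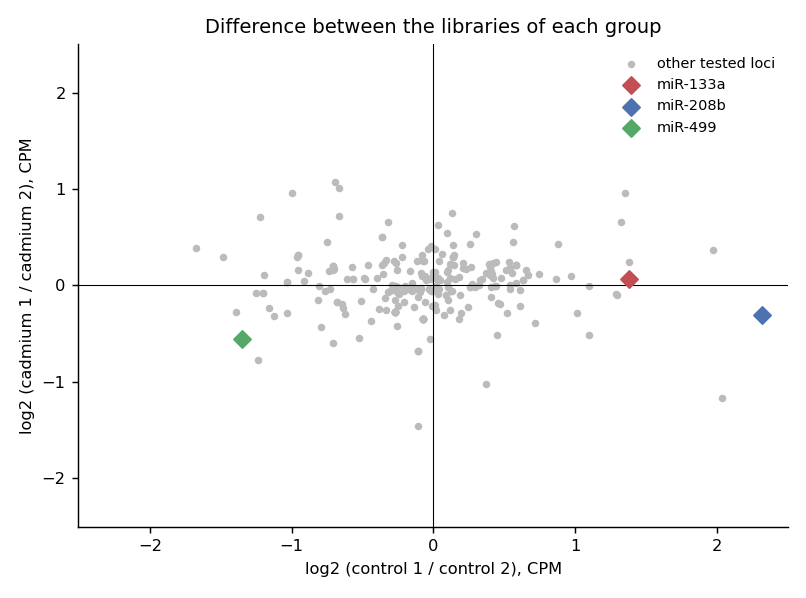
Difference between the control libraries (horizontal, log2 of control 1 over control 2 in CPM) against that between the cadmium libraries (vertical, log2 of cadmium 1 over cadmium 2) for all 276 tested loci. miR-208b lies farthest from 0 on the horizontal axis, at 2.32, miR-133a lies at 1.38 and miR-499 on the opposite side at -1.35, while all 3 are within 0.56 of 0 on the vertical axis.

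Ratios between members within a library do not depend on scaling. There were 19.2 reads of miR-133a per read of miR-208b in control 1, 36.8 in control 2, 69.5 in cadmium 1 and 53.8 in cadmium 2. Both cadmium libraries were above both controls, with a difference in mean log2 ratio of 1.20, against an SD of 0.66 in controls and 0.26 with cadmium. Reads of miR-133a per read of miR-499 were 38.4, 5.76, 63.2 and 41.1 in the same order, with a difference of 1.78. Here control 2 set most of the gap, since control 1 was close to cadmium 2, and without control 2 the difference was 0.41. miR-208b stood at 2 reads per read of miR-499 in control 1, 0.157 in control 2, 0.909 in cadmium 1 and 0.765 in cadmium 2, so the cadmium libraries lay between the controls.

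The exact two-sided permutation p was 0.333 for each of the first 2 ratios and 1 for the last, or 0.5, 0.5 and 1 adjusted over the 3 ratios. The smallest value that 2 libraries against 2 can give is 0.333. These ratios therefore cannot pass a threshold of 0.05, whatever their size.

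**Figure D4:**
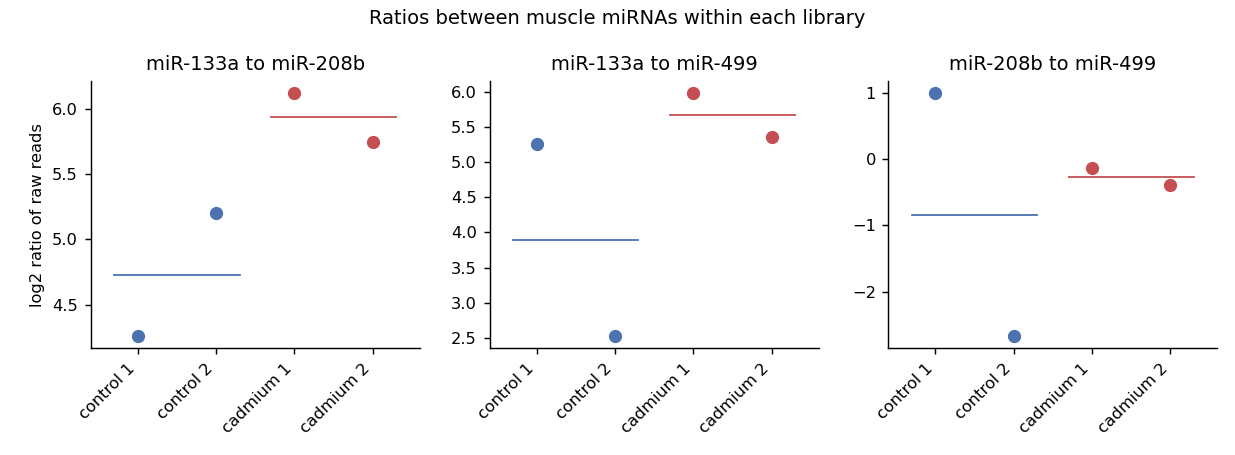
Log2 ratio of raw reads (vertical, a separate scale in each panel) between pairs of muscle miRNAs in each library, with lines at the group means. The cadmium libraries are above both controls for miR-133a to miR-208b and for miR-133a to miR-499, and between the controls for miR-208b to miR-499, whose controls stand at 1 and -2.67.

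Together, with each sequence counted once, the members had 1166 reads in control 1, 353 in control 2, 756 in cadmium 1 and 764 in cadmium 2. As CPM of annotated sequences, each counted once and without TMM, that was 54.5, 23.3, 85.0 and 79.8. Both control 2 values leave out miR-133b, which that library does not list. The control mean was 38.9 ± 22.0 and the cadmium mean 82.4 ± 3.68 (SD over 2 libraries each). Their ratio was 2.12 (exact two-sided permutation p = 0.333, the smallest possible). The difference in mean log2 was 1.21, and 0.92 with TMM scaling. miR-133a made up 92.1%, 83.3%, 91.9% and 91.5% of these reads, so the sum is nearly its value alone.

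The tested loci whose pattern over the 4 libraries was nearest to a member were found by the root mean square distance of centred log2 CPM, a description over 4 points that share their libraries. For miR-133a these were let-7e (distance 0.15, with 310, 113, 237 and 232 reads in control 1, control 2, cadmium 1 and cadmium 2) and the copies miR-125b-1 and miR-125b-2 (both 0.21). Their log2 fold changes were 0.92 ± 0.33, 0.44 ± 0.39 and 0.44 ± 0.39, none past the threshold. For miR-208b they were miR-203, a skin miRNA (0.30, with 313, 57, 96 and 78 reads in the same order), miR-7052 (0.43) and miR-5619 (0.45). For miR-499 they were miR-322 (0.28), miR-5123 and miR-450b (both 0.29). miR-322 and miR-450b come from one cluster on the X chromosome, and of these 9 loci miR-322 alone passed the test, at -1.15 ± 0.27 (edgeR adjusted p = 0.0268).

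The loci next to each member in mean level are given for scale. miR-1843a and miR-29b-1, just above and below miR-133a, had log2 fold changes of 0.30 ± 0.28 and 0.83 ± 0.28. miR-669l and miR-34a, beside miR-208b, had -0.44 ± 0.36 and -0.40 ± 0.37. miR-574 and miR-7669, beside miR-499, had -0.19 ± 0.36 and 0.82 ± 0.38. The edgeR test called 0 of these 6 loci changed, and 40 of all 276, or 14.5%. With only 6 loci, 0 called cannot be told apart from that share.

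Other miRNAs known from muscle, but made in many tissues, were read beside the members, and whether the lists differ was not tested. Of 11 such loci, holding 7 distinct sequences, 4 fell and 0 rose, where 6.52% of all tested loci were called lower and 7.97% higher. The 4 were miR-486 with miR-3107, which has the same mature sequence on the opposite strand, and the copies miR-181a-1 and miR-181a-2, with the same reads. miR-486, abundant in red cells as well as muscle, went from 253127 ± 11340 CPM to 167228 ± 8297 CPM and so fell by 0.60 ± 0.07 on the log2 scale (edgeR adjusted p = 0.00204). miR-181a, also of lymphocytes, fell by 0.81 ± 0.16 on the log2 scale. Neither is specific to muscle.

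The others were not past the threshold. miR-378a, of energy metabolism, had -0.30 ± 0.16. The miR-29 members, known for lowering collagen, had 0.19 ± 0.15 for miR-29a, 0.83 ± 0.28 for both copies of miR-29b and 0.16 ± 0.22 for miR-29c. miR-26a-1 and miR-26a-2 had -0.060 ± 0.12. The median over the 11 loci was -0.060, against 0.080 over all tested loci.

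Lists of other sources were read at the same time, against the same 6.52% of loci called lower and 7.97% higher. The red cell list had 2 of 4 tested loci lower and 0 higher, and the lymphocyte list 1 of 3 lower. The liver and the platelet and endothelium lists had 0 of 3 and 0 of 2 called. Of the myeloid list only the 2 copies of miR-24 were tested, which have the same reads, and both were called higher. That is 1 sequence, which cannot show a change in myeloid cells. miR-126a, of endothelium and platelets, had 7562, 4072, 3237 and 3061 reads in control 1, control 2, cadmium 1 and cadmium 2, and a log2 fold change of -0.15 ± 0.20. The summed liver level covers the 3 tested loci, so not miR-122. It was 4146 to 4818 CPM in controls and 3514 to 3545 CPM with cadmium. miR-122, the most abundant miRNA of hepatocytes, had 16 reads in control 1, went unlisted in control 2, and reached 102 reads in cadmium 1 and 114 in cadmium 2, so like miR-133b it had more reads in the cadmium libraries. miR-451 and miR-223 of these lists are not analysed here. The part of these sources in the muscle values was not tested.

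**Figure D5:**
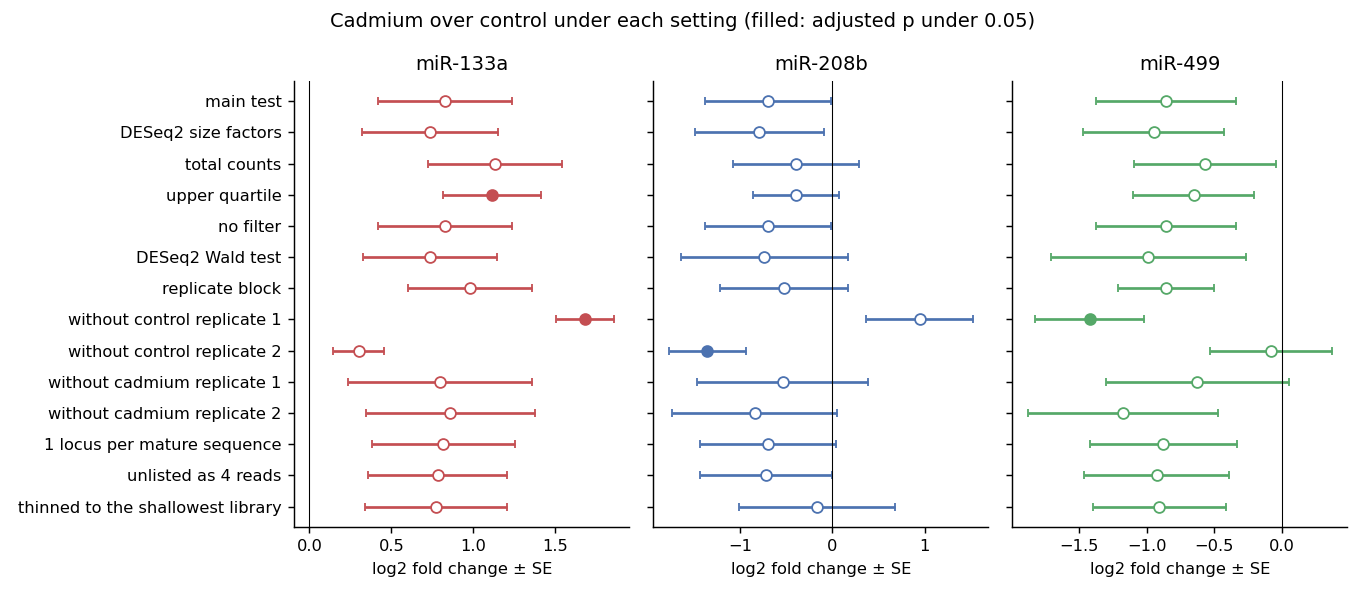
Log2 fold change of cadmium over control with its SE (horizontal) for miR-133a, miR-208b and miR-499 under each processing setting (vertical), filled where the adjusted p is under 0.05. The value of miR-133a spans 0.30 to 1.68, and miR-208b turns from -0.70 to 0.95 without control 1.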

How the data were processed

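Whole-blood small RNA libraries were sequenced by the authors, who deposited 1 list per library of raw read counts per mature miRNA locus. The submitters' processing notes name Bowtie 0.12.2, DESeq and mm10. What each tool did, how reads were assigned between near-identical miRNAs and which miRNA release was used is not given in the sources used here.

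A name and its star form were merged, and an unnamed total in cadmium 1 was left out. The sequence column of control 2 is out of step with its rows and was not used. The main test was edgeR 4.0.16 in R 4.3.3 (quasi-likelihood F test, TMM, filterByExpr, group only, two-sided, Benjamini-Hochberg, threshold 0.05). Tested loci had to be present in each of the 4 lists with windows that overlap by at least 10 bases, which left 277 annotated loci, and 276 after the filter. TMM factors were 0.892, 0.912, 1.13 and 1.09. SE is the log2 fold change over the square root of F. Intervals for single libraries are exact and cover counting error only.

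The members, lists and tests were chosen with earlier results of these data known. Named loci are the members, the muscle lists, the 3 loci nearest in pattern to each tested member and its neighbours in level. Alternatives were other scalings, no filter, DESeq2 1.42.0, a replicate block, leaving out each library, 1 locus per sequence, unlisted loci as 4 reads and thinning to the shallowest library. Positions were annotated with GENCODE M21. Figures were made with matplotlib 3.10.9 in Python 3.11.15, intervals and permutation tests with SciPy 1.17.1.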

Additional observations from a re-analysis of the deposited data

How the results depend on the processing

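The count of loci called, 40, moved to 65 with total counts and to 19 with the replicate number as a block, and ranged from 8 to 122 when 1 library was left out. Upper quartile scaling called miR-133a at 1.11, and total counts put the median of all loci at 0.38 and upper quartile scaling at 0.32, against 0.080. Leaving out 1 library gave 0.30 to 1.68 for miR-133a, -1.35 to 0.95 for miR-208b, with the turn to 0.95 without control 1, and -1.42 to -0.078 for miR-499; the cause was not tested. The ranges of the differences in log2 ratio were 0.73 to 1.67 for miR-133a to miR-208b, 0.41 to 3.14 for miR-133a to miR-499 and -1.26 to 2.41 for miR-208b to miR-499. The summed level differed by 0.60 to 1.82 in mean log2. With the replicate block the values of miR-133a, miR-208b and miR-499 were 0.98, -0.52 and -0.86, none past the threshold. Over 276 loci, same-numbered libraries showed no shared deviation (correlation 0.00472). With 2 libraries per group this cannot exclude a pairing, and the labels do not give one. Thinned to the shallowest library, miR-208b stood at -0.16 and miR-499 at -0.91; the cause was not tested. miR-208b has 8 to 13 reads in 3 of the libraries.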
